A study of Mus musculus with 2 samples.

Results

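MHC class II molecules are pairs of an alpha and a beta chain that hold peptides at the cell surface for helper T lymphocytes. The genes described here are 10 of that pathway, namely the chains H2-Aa, H2-Ab1 and H2-Eb1, the peptide-loading chains H2-DMa, H2-DMb1, H2-Oa and H2-Ob, the invariant chain Cd74, the transactivator Ciita and the protease Ctss. They were selected on the FLS/DS ratios of the same 2 arrays that are described here, so their ratios are a description and not a test. On the Affymetrix Mouse Genome 430 2.0 array, 9 of the 10 genes, out of 18194 genes in all, had a probe set annotated to that gene alone. These 9 genes had 17 probe sets, out of 45101 on the array. H2-DMb1 had no probe set of its own.

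Liver RNA of FLS (fatty liver Shionogi) mice, an inbred strain that develops steatohepatitis (NASH), was compared with that of DS (dd Shionogi) mice, an inbred strain used as the model of simple steatosis. RNA from 3 livers was pooled for FLS and from 3 for DS, all at 19 weeks of age on a standard pellet diet and after saline perfusion, and each pool was hybridized to 1 array. Both strains go back to the outbred ddN colony, FLS through its C line and DS through its A line. With 1 array per strain, no value has an error and no p-value can be given. Strain, liver disease and array cannot be told apart.

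Values are linear signal intensities. The median over all probe sets was 120.3 for FLS livers against 125.2 for DS livers. Of all probe sets, 16.4% in FLS livers and 16.0% in DS livers exceeded 500, the limit used here for a gene to count as measured. All 10 hepatocyte markers exceeded 500 in both pools, with ratios from 0.867 for Asgr1 to 1.12 for Hnf4a, and of 1.05 for Apoa1 and 0.962 for Pck1. Where a gene had several probe sets, the one with the highest mean over both pools gave its value. As a measure of scatter between readings of a gene, probe sets of 1 gene differed with a pooled SD of 0.22 on the log2 scale over 1424 genes with at least 2 probe sets above 500. Signals of different probe sets cannot be ranked against each other, so only FLS/DS ratios are compared between genes. Summed signals of a list, given below, weigh each gene by the brightness of its probe set. They describe the 2 pools and do not measure the amount of a cell type.

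In antigen-presenting cells, newly made alpha and beta chains are held by the invariant chain, which fills the peptide groove and takes them to endosomes. There cathepsin S trims the invariant chain to a short remnant, DM exchanges that remnant for peptides, and DO holds DM back. CIITA does not bind DNA itself but is recruited to class II promoters by factors on the X and Y boxes (RFX, CREB and NF-Y), and interferon gamma induces it. In the liver, Kupffer cells, dendritic cells, B lymphocytes and sinusoidal endothelial cells are known to carry class II molecules.

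The chains of the peptide-binding molecules and the invariant chain had higher signals in FLS livers, by 4.17-fold for H2-Ab1, 3.55-fold for H2-Eb1, 3.42-fold for H2-Aa and 2.70-fold for Cd74. Ctss was 1.62-fold higher. Whole liver was measured, so more cells of a type and more RNA per cell cannot be told apart. Signals of H2-DMa, H2-Oa, H2-Ob and Ciita lay close to or below the array medians in both pools, with ratios from 1.02 to 1.26. Of the 9 genes, 4 were higher and 0 were lower by 2-fold or more, while 0.989% of all genes on the array were higher and 0.709% lower to that extent. Of the 5 genes that exceeded 500 in either pool, again 4 were higher by 2-fold or more, against 2.29% of 5076 genes under the same limit, and 0 were lower, against 1.77%. Because the genes were chosen for these ratios, nothing is read from the shares. H2-Aa, H2-Ab1 and H2-Eb1 passed the limit of 500 through the FLS pool alone, whereas Cd74 and Ctss exceeded it in both.

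**Figure D1:**
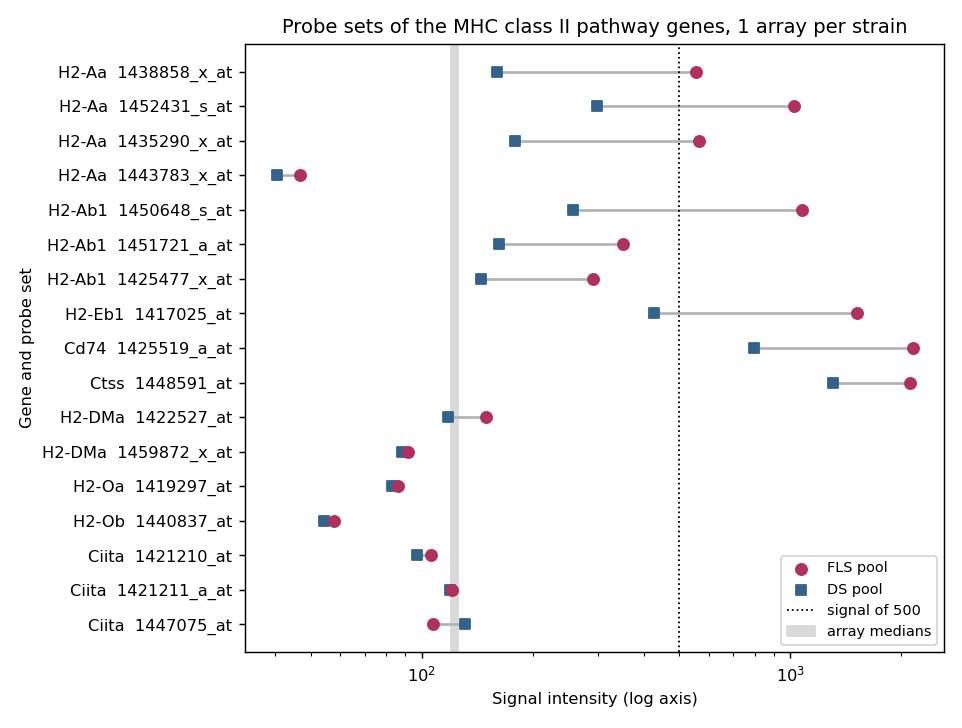
Signal intensity (log axis) of each of the 17 probe sets in FLS livers (circles) and DS livers (squares), with 1 array per pool, joined by a line. The dotted line marks 500 and the grey band the array medians of 120.3 and 125.2. The circles of 3 probe sets of H2-Aa, all 3 of H2-Ab1 and those of H2-Eb1, Cd74 and Ctss lie well to the right of their squares, and those of the other genes lie near their squares.

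H2-Ab1 (Entrez gene 14961) encodes the beta chain of I-A, 1 of the 2 classical class II molecules of the mouse. Its value came from a probe set that read 1075 in FLS livers against 258 in DS livers, a log2 ratio of 2.06. The name of this probe set ends in _s_at, a suffix that Affymetrix gives to probe sets shared by transcripts of different genes. The other 2 probe sets of H2-Ab1 had signals of 351 in FLS livers against 162 in DS livers and of 292 in FLS livers against 145 in DS livers, with ratios of 2.16 and 2.01. All 3 were thus higher in FLS livers, but their ratios differed by up to 2.07-fold. Over 3209 genes with several probe sets above 200, 97.6% had a range no wider than that of H2-Ab1, and the median gene had a range of 1.15-fold.

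H2-Aa (Entrez gene 14960) encodes the alpha chain of I-A. Its probe set with the highest mean, also of the _s_at type, gave 1022 in FLS livers against 299 in DS livers, a log2 ratio of 1.77. On 2 others, whose suffix _x_at marks probes that closely match other sequences, the signals were 556 in FLS livers against 160 in DS livers and 564 in FLS livers against 179 in DS livers. The 3 ratios, 3.42, 3.47 and 3.14, lay within 1.10-fold of each other, a narrower range than the median of 1.11-fold over genes with several probe sets above 500. The 4th probe set had signals of 46.7 in FLS livers against 40.4 in DS livers, at percentiles 1.25 and 0.0732 of the arrays, near the bottom of both. H2-Aa has no probe set without one of these suffixes.

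H2-Eb1 (Entrez gene 14969), the beta chain of I-E, has a single probe set, of the gene-specific type. Its signal was 1517 in FLS livers and 428 in DS livers, a log2 ratio of 1.83. The alpha chain that pairs with it is encoded by H2-Ea, a gene listed here beside the selected ones. RefSeq classes H2-Ea as a transcribed pseudogene in C57BL/6J, a strain known to lack I-E. One of its probe sets gave 731 in FLS livers against 507 in DS livers, a ratio of 1.44, while 2 others lay between 60.8 and 76.8 in FLS livers and between 60.2 and 88.0 in DS livers, below both array medians. The ratios of these 2 were 1.01 and 0.872, so the probe sets of H2-Ea did not share a direction. By its probe set with the highest mean, H2-Ea had a ratio of 1.44, against 3.55 from the single probe set of H2-Eb1.

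Class II genes differ in sequence between mouse strains, and no probe sequences were used here. For a gene read from 1 probe set, a strain difference in the sequence under the probes and a difference in transcript level cannot be told apart. Several probe sets do not settle this for H2-Aa and H2-Ab1, since most of theirs are of the _s_at or _x_at type.

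Cd74 (Entrez gene 16149), the invariant chain, lies on another chromosome than the class II region and is not part of its haplotype. Its signal was 2145 in FLS livers and 794 in DS livers, a log2 ratio of 1.43 from its single probe set, whose suffix _a_at stands for alternative transcripts of 1 gene. Ctss (Entrez gene 13040), the protease that trims the invariant chain, gave 2108 in FLS livers against 1303 in DS livers, a log2 ratio of 0.69. Ctss thus fell short of a 2-fold difference and kept that position under each of 4 other scalings, with ratios from 1.59 to 1.87.

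Among the 5076 genes above 500, ranked from the highest ratio down, H2-Ab1 was at place 27, H2-Eb1 at 30, H2-Aa at 31, Cd74 at 54 and Ctss at 234. The log2 ratios of H2-Eb1 and H2-Aa differed by 0.05, less than the scatter of 0.22 between probe sets. The step between H2-Ab1 and H2-Eb1 was 0.23, close to that scatter. It turned round with the median over all probe sets, which gave H2-Ab1 a ratio of 2.16, below the 2.70 of Cd74 too. H2-Aa stood 0.34 above Cd74, and Cd74 stood 0.74 above Ctss, both more than that scatter. The scatter is that of single probe sets within a gene on these 2 arrays. It holds no spread between animals or arrays and is not an error for a step between 2 genes.

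The peptide-loading genes gave little signal. H2-DMa, the alpha chain of DM, gave 149 in FLS livers against 118 in DS livers by its first probe set and 91.8 in FLS livers against 88.2 in DS livers by the second. For its partner H2-DMb1, 2 probe sets shared with H2-DMb2 had signals of 80.7 and 146 in FLS livers and 67.8 and 132 in DS livers. H2-DMb2 alone had 3 probe sets, with signals of 364, 326 and 124 in FLS livers and 350, 295 and 131 in DS livers. Their ratios were 1.04, 1.11 and 0.944, so they did not share a direction. H2-Oa, the alpha chain of DO, gave 86.4 in FLS livers against 83.1 in DS livers, and the beta chain H2-Ob 57.9 in FLS livers against 54.5 in DS livers. A further probe set annotated to both H2-Ob and Gm20506 gave 151 in FLS livers against 170 in DS livers. Apart from the 2 brighter probe sets of H2-DMb2, all of these lay near or below the array medians. At such signals a difference in DM or DO transcripts was not detectable.

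Ciita (Entrez gene 12265) was read by 3 probe sets, with signals of 121, 108 and 106 in FLS livers and 119, 131 and 96.9 in DS livers. The ratios were 1.02, 0.822 and 1.09, so the probe sets did not share a direction. All signals lay at or around the array medians. A difference in Ciita was not detectable at this signal, which does not show that the strains were alike.

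The promoter sequences bear on these genes as a group, since the X and Y boxes are the letters through which CIITA is recruited. Windows from 250 bases before to 50 bases after the annotated start came from RefSeq (GRCm38.p6, from C57BL/6J) for 7 of the 10 genes, namely H2-Aa, H2-Eb1, H2-DMa, H2-DMb1, H2-Oa, H2-Ob and Ctss. FLS and DS may differ from this sequence. Shown are the last 150 bases before the start of 3 genes with higher FLS signals (H2-Aa, H2-Eb1 and Ctss) and of both DO genes. Capitals mark the Y box core ATTGG, the X1 box core AGNAACNGA, the X2 box TGNGTCA, the cyclic AMP response element TGACGTCA and the core of the interferon-stimulated response element, on either strand, where the whole motif lies within the bases shown.
H2-Aa (chr17:34287824-34287973, minus strand): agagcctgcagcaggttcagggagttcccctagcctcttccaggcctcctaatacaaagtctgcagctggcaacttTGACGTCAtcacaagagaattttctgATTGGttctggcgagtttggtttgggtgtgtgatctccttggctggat
H2-Eb1 (chr17:34305717-34305866, plus strand): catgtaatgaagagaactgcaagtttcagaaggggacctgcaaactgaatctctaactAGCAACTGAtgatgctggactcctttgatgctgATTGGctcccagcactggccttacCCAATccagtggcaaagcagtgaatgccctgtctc
Ctss (chr3:95526636-95526785, plus strand): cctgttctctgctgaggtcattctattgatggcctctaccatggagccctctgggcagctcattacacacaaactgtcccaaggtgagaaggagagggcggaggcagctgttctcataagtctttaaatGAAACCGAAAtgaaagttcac
H2-Oa (chr17:34092229-34092378, plus strand): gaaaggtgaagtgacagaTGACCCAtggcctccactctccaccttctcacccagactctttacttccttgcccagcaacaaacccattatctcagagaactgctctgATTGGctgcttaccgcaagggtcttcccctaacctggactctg
H2-Ob (chr17:34238755-34238904, plus strand): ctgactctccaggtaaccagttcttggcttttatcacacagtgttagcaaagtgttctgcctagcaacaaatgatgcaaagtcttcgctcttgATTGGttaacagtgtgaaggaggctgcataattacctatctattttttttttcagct

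The Y box CTGATTGG, which contains the core, was found in H2-Aa, H2-Eb1 and H2-Oa, and in 4.10% of all 32851 windows of this length. The core ATTGG was found in 6 of the 7 genes, Ctss being the exception, and in 37.4% of all windows. The X1 box core was found in H2-DMb1, H2-Eb1 and H2-Oa, and in 5.35% of all windows. In H2-Oa the match lay on the opposite strand at position -4, after the Y box core at -43. Variants of these letters were not searched, so a gene without a match may hold one. The X2 box was found in Ctss, H2-DMa and H2-Oa, and in 15.4% of windows. TGACGTCA, added after the sequences were seen, was found in H2-Aa alone of the 7 genes and in 1.79% of windows. The interferon response motif was found in Ctss alone, at position -21 from its start, and in 3.44% of windows. TTCNNNGAA, the motif of STAT factors, was found in none of the 7 genes and in 8.30% of windows.

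An X1 box core followed by a Y box core 10 to 40 bases later on the strand of the gene, a spacing chosen after the sequences were seen, occurred in 20 of the 32851 windows (0.0609%). Among the class II genes these were H2-DMb1, H2-Eb1 and H2-Eb2, with 25, 24 and 24 bases between the cores. H2-Eb2, a neighbour of H2-Eb1 with the full Y box, gave 148 in FLS livers against 177 in DS livers, not above 500 in either pool. A match of letters is a description and not a binding site.

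**Figure D2:**
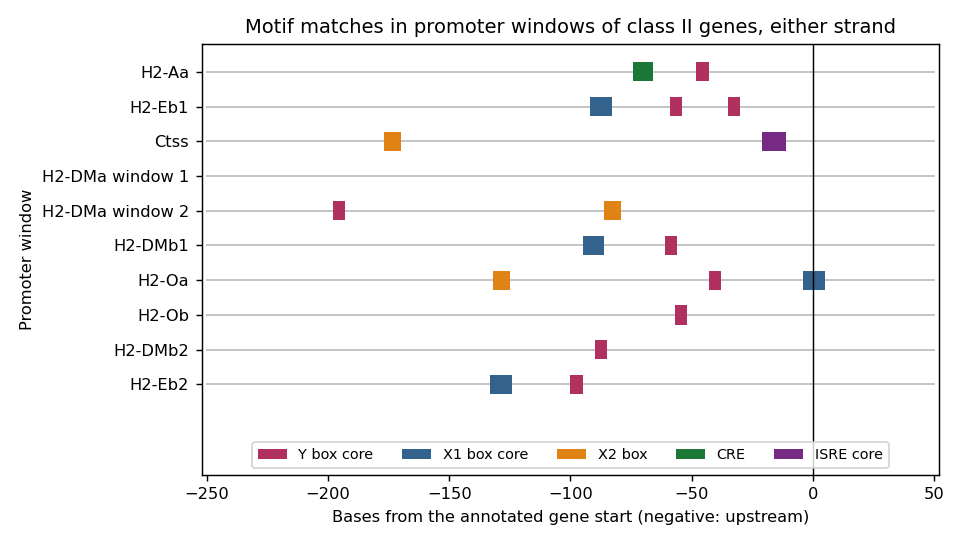
Matches of 5 motifs on either strand in 10 promoter windows of 9 class II pathway genes, by distance in bases from the annotated start (vertical line). In H2-Eb1, H2-DMb1 and H2-Eb2 an X1 box core (blue) precedes a Y box core (red) by 24 or 25 bases, and H2-DMa has 2 windows, 1 of them without a match.

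On mouse chromosome 17 the classical class II genes lie side by side, and RefSeq places 16 genes between H2-Oa and H2-Ea, both included. Of the 5 genes there with a value that are not class II genes, 0 differed by 2-fold in either direction. Nothing is read from this count, since only 0.989% of all genes on the array were 2-fold higher and 0.709% lower. The ratios of the 5 ran from 1.07 for Brd2 to 1.63 for Tap2. Of the 5, 3 exceeded 500, with a median log2 ratio of 0.39 against 0.04 over all genes above 500. These 3 were Brd2, a bromodomain protein gene, at 825 in FLS livers against 771 in DS livers, and the immunoproteasome genes Psmb9, with 966 in FLS livers against 738 in DS livers, and Psmb8, with 1235 in FLS livers against 807 in DS livers. The 3 genes of the region above a ratio of 2, H2-Ab1, H2-Aa and H2-Eb1, follow each other in this order without another gene between them. Tap2, the peptide transporter subunit on one side of H2-Ob, had a ratio of 1.63 with signals of 481 in FLS livers against 295 in DS livers, and H2-Eb2 on the far side of H2-Eb1 had a ratio of 0.834.

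**Figure D3:**
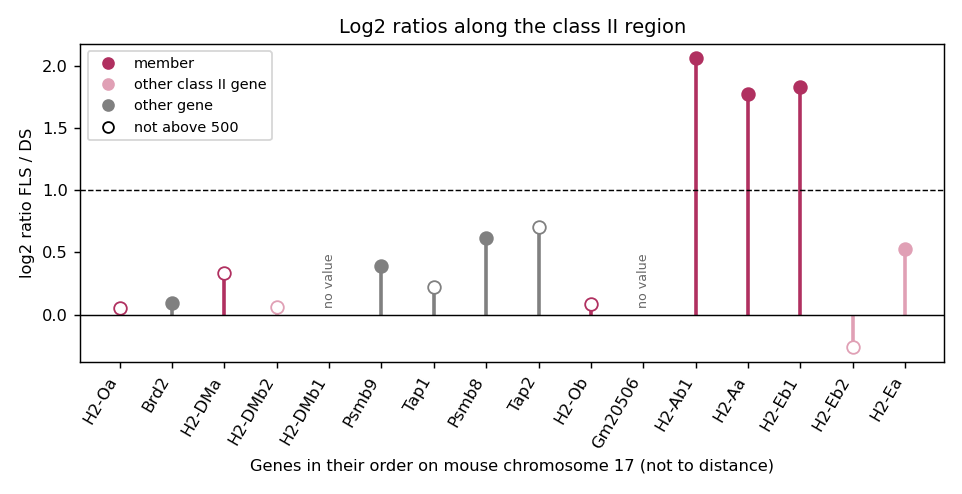
Log2 ratio FLS/DS of 14 genes with a value in the class II region of chromosome 17, in gene order and not to distance, with open circles for genes not above 500 in either pool. H2-Ab1, H2-Aa and H2-Eb1 stand next to each other above the dashed 2-fold line, and no other gene of the region reaches it.

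Other genes of antigen processing for class II, taken from a list of 10, had ratios from 0.780 to 1.44. Of 9 that exceeded 500, 0 were 2-fold higher or lower, 8 had a ratio above 1 and 1 below, with a median log2 ratio of 0.28 against 0.04 over all genes above 500. Cst3, which encodes the cathepsin inhibitor cystatin C, gave 1972 in FLS livers against 1365 in DS livers. The cathepsin genes Ctsz and Ctsd had ratios of 1.33 and 1.30. Ifi30, a thiol reductase gene of the endosome, was the one with a ratio below 1, with 909 in FLS livers against 1165 in DS livers.

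The factors that bind the X and Y boxes or act with CIITA had ratios from 1.08 to 1.31 over 9 genes. Their median log2 ratio was 0.19, against -0.04 over all genes on the array. All 9 ratios were above 1, as were those of 7750 of the 18194 genes on the array. Of the 9 factors, those above 500 were the NF-Y subunit genes Nfyb (1.18) and Nfyc (1.20) and the acetyltransferase genes Crebbp (1.21) and Kat2b (1.10). In the interferon gamma pathway, 3 of 8 genes on the array exceeded 500 and 0 differed by 2-fold. Irf1, a transcription factor gene that acts upstream of Ciita, gave 568 in FLS livers against 347 in DS livers, a ratio of 1.64. The receptor gene Ifngr1 had a ratio of 1.27 and the kinase gene Jak1 of 0.989. Ifng itself, named after its values were seen, had signals of 65.1 in FLS livers against 71.9 in DS livers, below both array medians.

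Interferon-induced genes, taken from a list of 12, also had higher signals in FLS livers. Of 8 above 500, 4 were higher in FLS livers by 2-fold or more and 0 were lower by as much, beside the 2.29% and 1.77% of all genes under the same limit. Cxcl9, Gbp6, Gbp7 and, named for this reason only, Irgm2 passed 500 through the FLS pool alone, and 4 of the 8 exceeded it in both. All 11 genes of the list on the array had ratios above 1, as did 7750 of all 18194 genes. The median log2 ratio of the list was 0.87, against -0.04 over all genes. Under other scalings between 3 and 5 genes were at or above 2-fold. Ifi47, an interferon-inducible GTPase gene, gave 1724 in FLS livers against 549 in DS livers. The guanylate-binding protein genes Gbp6 and Gbp7 had ratios of 2.60 and 2.04. The chemokine gene Cxcl9 had a ratio of 2.80.

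MHC class I genes, whose products show peptides to cytotoxic T lymphocytes, had smaller ratios. Of 7 above 500 from a list of 10, 0 were at least 2-fold higher or lower, and the median log2 ratio over the 10 genes was 0.32. The class I heavy chain gene H2-K1 gave 9059 in FLS livers against 7604 in DS livers. Psmb8, Tapbp, which encodes tapasin, and Psmb9 had the largest ratios among those above 500, at 1.53, 1.52 and 1.31. Nlrc5, the class I counterpart of Ciita, looked up after its values were seen, gave 367 in FLS livers against 224 in DS livers.

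**Figure D4:**
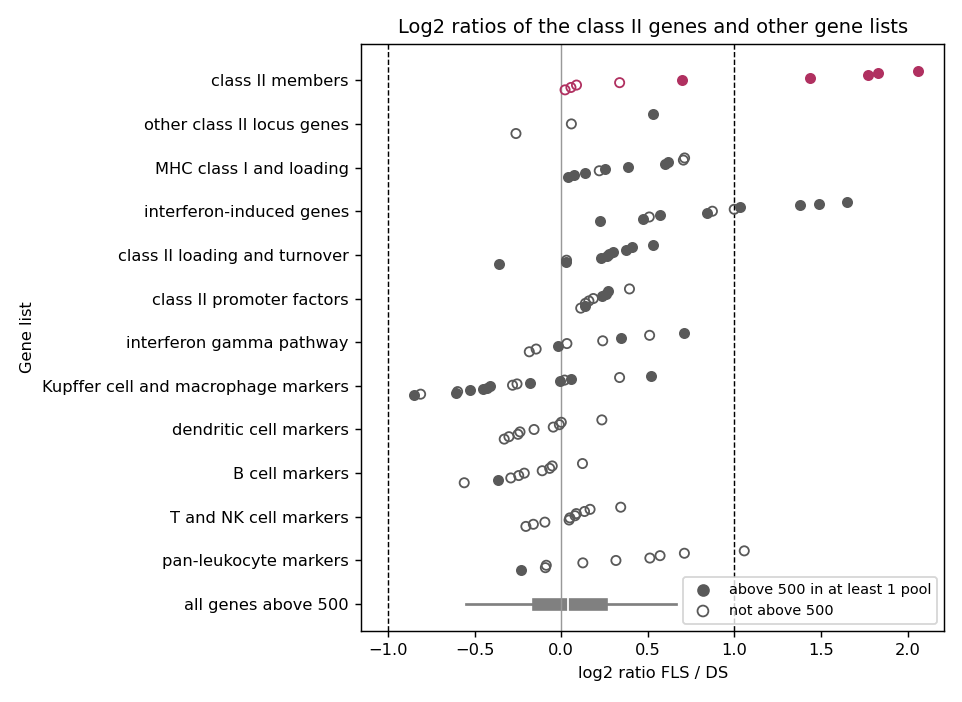
Log2 ratio FLS/DS of each gene (filled, above 500 in at least 1 pool; open, not above 500) in 12 gene lists, with the median, the middle 50% and the central 90% of all 5076 genes above 500 in the lowest row. Dashed lines mark 2-fold differences. H2-Ab1, H2-Eb1, H2-Aa and Cd74 lie to the right of the upper line, together with 4 interferon-induced genes above 500 and the leukocyte gene Cd52, not above 500.

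None of 9 dendritic cell markers exceeded 500 in either pool, and their signals summed to 1267 in FLS livers against 1372 in DS livers. Their median log2 ratio was -0.16 as deposited and 0.05 after division by Actb. Of 9 B cell markers, only Ighm, the immunoglobulin heavy chain gene, exceeded 500, with 550 in FLS livers against 708 in DS livers, and the sum was 1502 in FLS livers against 1793 in DS livers. Over the B cell markers the median log2 ratio was -0.21 as deposited and -0.01 after division by Actb. B cell genes Cd79a and Ms4a1, looked up after their values were seen, lay below the array medians in both pools, with signals of 99.4 and 91.9 in FLS livers and 115 and 95.3 in DS livers. Signals near the array median do not show that such cells were absent.

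Of 16 markers of Kupffer cells and macrophages on the array, 12 had ratios below 1 as deposited, as did 10444 of all 18194 genes. The median log2 ratio of the markers was -0.35, against -0.04 over all genes, and lay between -0.37 and -0.14 over other scalings. Over the 10 markers above 500 the median was -0.42 as deposited and 0.03 after division by Actb, which changes which markers pass the limit. Of these 10, Vsig4 and, named for this reason only, Adgre1, Clec4f and C1qc passed 500 through the DS pool alone. A gene that passes in this way has a ratio below 1 by the rule itself, which lowers this median. The other 6 exceeded 500 in both pools. Of the 10, 0 were 2-fold higher or lower, beside 2.29% and 1.77% of all genes under the same limit. The summed signal of all 16 markers was 9491 in FLS livers against 11525 in DS livers. Vsig4, a complement receptor gene of resident macrophages, gave 408 in FLS livers against 736 in DS livers. Cd5l had 1484 in FLS livers against 2260 in DS livers, and Mpeg1 had 1143 in FLS livers against 1649 in DS livers. Lyz2, the lysozyme gene of myeloid cells, had a ratio above 1, with 970 in FLS livers against 677 in DS livers.

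Genes expressed across leukocytes had a median log2 ratio of 0.32 over 9 genes, against -0.04 over all genes. Of the 9, 6 had ratios above 1, as did 7750 of all 18194 genes. The summed signal of the 9 was 3170 in FLS livers against 2718 in DS livers. The 1 above 500 was Lcp1, which encodes plastin-2, with 642 in FLS livers against 756 in DS livers. Ptprc, which encodes CD45, gave 373 in FLS livers against 251 in DS livers, and the lymphocyte surface gene Cd52 gave 265 in FLS livers against 127 in DS livers, both looked up after their values were seen. The summed signal of 9 sinusoidal endothelial markers was 7364 in FLS livers against 7081 in DS livers, and that of 10 markers of T and NK cells, none of them above 500, was 1207 in FLS livers against 1201 in DS livers. Among the endothelial markers above 500, the scavenger receptor gene Stab2 had a ratio of 1.34, Clec4g of 1.08, Mrc1 of 0.943 and Fcgr2b of 0.865. The summed signal of 6 monocyte markers was 9825 in FLS livers against 9174 in DS livers, most of it from Fn1, the fibronectin gene, which hepatocytes also express. Fn1 gave 9011 in FLS livers against 8423 in DS livers, and the other 5 were not above 500, with signals between 64.5 and 431 in FLS livers and between 69.3 and 350 in DS livers. The part of any cell type in the class II ratios was not tested.

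The FLS signal of the 5 genes above 500 was higher under each scaling. This is no test, since the scalings put the median log2 ratio over all genes only between -0.04 and 0.17. Shifts of that size could not turn round ratios as large as these. The choice of probe sets moved H2-Ab1 more, to a ratio of 2.16. Over the deposited scale and 4 other scalings the ratio ran from 4.07 to 4.80 for H2-Ab1, from 3.47 to 4.09 for H2-Eb1, from 3.33 to 3.94 for H2-Aa and from 2.64 to 3.11 for Cd74. The upper ends came from division by Actb, whose own ratio was 0.867 and which shifts every log2 ratio upward by 0.21.

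**Figure D5:**
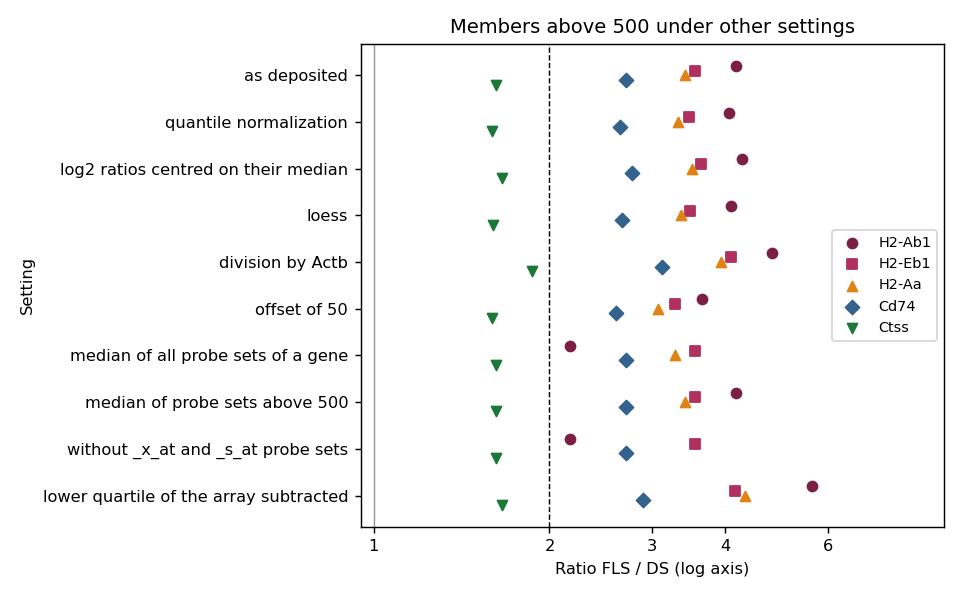
Ratio FLS/DS (log axis) of the 5 genes above 500 as deposited and under 9 other settings, 1 value per gene and setting, with the dashed line at 2. H2-Ab1, H2-Eb1, H2-Aa and Cd74 lie to the right of the dashed line in every setting that gives a value, Ctss lies to its left in all of them, and H2-Aa has no value without _x_at and _s_at probe sets.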

How the data were processed

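The data are 2 Affymetrix Mouse Genome 430 2.0 arrays, 1 of pooled FLS liver RNA and 1 of pooled DS liver RNA, 3 mice each. The deposited signal intensities had been normalized and summarized by the authors with the PM-only MBEI algorithm, on a linear scale. The submitters' processing notes name affy, and any scaling between the arrays is not stated in the texts at hand. A strong probe in 1 strain can read weaker in the other if the sequence under it differs, and unspecific signal draws ratios toward 1.

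Platform annotation gave 1 symbol to 34958 of 45101 probe sets, several to 932 and none to 9211. For 34754 probe sets with 1 symbol, the Entrez number was found in a RefSeq gene table (GRCm38.p6), which gave the current symbol. Ratios were FLS over DS without an offset. All lists (15 beside the selected genes, with 139 of 147 names found) are described by counts and medians only, since 1 array per strain allows no test. The genes, the lists and the alternatives were chosen with earlier results of these data known. The text names all 10 genes, 3 further class II genes, genes of the class II region, and for each list up to 4 genes above 500 with the largest absolute log2 ratio, and says where others are named. The T cell partner list is given among the other observations.

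Promoter windows were 300 bases long. The calculation was tested on simulated signals. Having only 2 arrays limits the precision. Software was pandas 2.3.3 and numpy 2.4.6 under Python 3.11.15, with statsmodels 0.14.6 for loess (fraction 0.4) and matplotlib 3.10.9 for plots.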

Additional observations from a re-analysis of the deposited data

How the results depend on the processing

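Alternatives were quantile normalization, centring of log2 ratios on their median, loess, division by Actb, an offset of 50, other rules for the value of a gene, other limits of signal and fold, and, chosen after seeing the data, subtraction of the lower quartile of each array. The number of class II genes at least 2-fold higher was 4 under each setting that kept the fold limit, except 3 without _x_at and _s_at probe sets, and 5 passed a limit of 1.5 and 3 a limit of 3. None was lower by as much in any of them. Medians that shifted by over 0.22 (log2) are given. The median log2 ratio of the genes above 500, 1.77, became 1.43 with each gene read as the median of its probe sets. It was 1.43 too without _x_at and _s_at probe sets, where H2-Aa has no value and H2-Ab1 is not above 500. It became 1.06 with a limit of 500 in both pools, which leaves 2 genes, and 2.05 after quartile subtraction. The median of all genes with a value, 0.69, became 1.77 if only probe sets above 500 were read, since 5 genes remain. The widest log2 range within a gene was 0.14 for probe sets above 500, 1.05 at a limit of 200, set by H2-Ab1, and 1.59 without a limit, set by the dim probe set of H2-Aa. Of the single ratios under alternatives, 67 moved by less than 0.22 and 5 by more. Those 5 were H2-Ab1 with both rules on probe sets, at 2.16, and quartile subtraction, which gave 5.63 for H2-Ab1, 4.33 for H2-Aa and 4.15 for H2-Eb1. No class II gene with a value changed direction under these settings, whereas division by Actb turned the median log2 ratio of the dendritic cell markers (-0.16 as deposited, 0.05 after), of the T cell partners (-0.12, 0.08) and of the Kupffer cell and macrophage markers above 500 (-0.42, 0.03). It also turned the medians of the sinusoidal endothelial markers (-0.04, 0.17) and of the monocyte markers (-0.03, 0.18). These 2 medians lay near 0 as deposited. The monocyte median turned under quantile normalization (0.03), centring (0.01) and loess (0.04) too, and the endothelial median under centring (0.002). Signals near the array medians limit what can be said of H2-DMa, H2-Oa, H2-Ob and Ciita.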

Other observations

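The partners of class II molecules on T lymphocytes and the costimulatory genes were low in both pools. None of 10 such genes exceeded 500. Cd4, the coreceptor that binds class II molecules, gave 209 in FLS livers against 231 in DS livers. Lag3, another class II ligand on T cells, had 116 in FLS livers against 124 in DS livers. The costimulatory genes Cd80 and Cd86 of antigen-presenting cells had 78.9 and 93.5 in FLS livers and 86.7 and 114 in DS livers, and Cd40 had 211 in both. Icam1, an adhesion molecule gene, had 277 in FLS livers against 168 in DS livers, a ratio of 1.65. Over the 10 genes the median log2 ratio was -0.12, and it was 0.08 after division by Actb. The single genes of this paragraph were picked after their values were seen.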
